A study of Mus musculus with 24 samples.

Results

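The 10 genes of triglyceride synthesis and glyceroneogenesis were examined. They were taken by symbol from the gene column of the deposited expression values, and are 10 of the 24825 genes listed. All 10 were found, and all 10 reached 1 FPKM in 3 or more libraries, the filter on low values that left 12640 genes for testing. FPKM values are read counts scaled to gene length and to library size, so levels of different genes can be set side by side, given the gene lengths used.

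RNA-seq was measured in cells of the stromal vascular fraction, which holds adipocyte precursors among other cells, from inguinal white fat. The cells came from Nfia flox/flox mice, in which exon 2 of Nfia, the gene of the transcription factor nuclear factor I-A, lies between loxP sites, and they were immortalised with SV40 large T antigen. Retroviruses made 4 cell types of them. The ctrl cells carried an empty vector, and the Cre cells carried Cre recombinase. A further vector added either NFIA in full length (Cre + NFIA) or NFIA lacking the pro#3 segment, the short C-terminal end of its proline-rich domain (Cre + NFIA Δpro#3), both with a FLAG tag. The 24 libraries hold 3 replicates of each cell type before (day 0) and after 7 days of a thermogenic differentiation protocol (day 7). All groups at day 7 had received isobutylmethylxanthine, indomethacin, dexamethasone, insulin, T3 and rosiglitazone, an agonist of PPARγ, followed by insulin, T3 and rosiglitazone. NFIA in both added forms was driven by a retroviral vector and not by the Nfia gene. The labels do not say whether replicates were separate cultures, so p-values measure the spread between these samples, which may be technical.

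Adipocytes store fatty acids as triglyceride, which is built on glycerol 3-phosphate. Gpd1 makes glycerol 3-phosphate from a glycolytic intermediate, and Pck1 feeds the same pool from pyruvate by glyceroneogenesis, which is known for its part in white and brown adipose tissue. A glycerol-3-phosphate acyltransferase (Gpam) adds the first acyl chain, acylglycerolphosphate acyltransferases (Agpat2, Agpat3) the next, lipins (Lpin1, Lpin2) remove the phosphate, and diacylglycerol acyltransferases (Dgat1, Dgat2) add the last chain. Lclat1 is a member of the acylglycerolphosphate acyltransferase family that is known for acting on lysocardiolipin and other lysophospholipids.

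Library totals were 7.73 to 13.09 M reads at day 0 and 9.15 to 14.62 M at day 7, and 3 reads corresponded to 0.205 to 0.388 CPM. For Nfia, the targeted gene, the ctrl libraries of day 0 held 6.23, 6.75 and 6.43 FPKM, beside 6.81, 5.34 and 6.49 FPKM for Cre. The ctrl libraries of day 7 held 9.81, 9.15 and 9.70 FPKM, beside 10.7, 10.1 and 9.49 FPKM for Cre. The level summed over the whole Nfia gene thus overlapped between ctrl and Cre, at a day 7 difference of 0.07 ± 0.07 (SE) on the log2(FPKM + 1) scale with a limma adjusted p of 0.426. Reads over exon 2 alone, genomic recombination and NFIA protein were not analysed here. In these values the direction of Cre against ctrl, and the loss of Nfia in every group with Cre, thus rest on the label. The study itself reported efficient recombination of genomic DNA and a nearly complete loss of NFIA mRNA and protein with Cre. The Cre samples are called the libraries labelled Cre. Transgene reads included, Nfia was at 69.7 to 97.1 FPKM in the Cre + NFIA libraries. It was at 59.7 to 111 FPKM in those of Cre + NFIA Δpro#3. Both cell types lay above every library labelled Cre.

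Defining markers of adipocytes were checked next. The summed level of 8 adipocyte markers (Adipoq, Fabp4, Plin1, Cidec, Lpl, Lipe, Cfd and Retn) was 68.4 to 109 FPKM over all 12 libraries of day 0. By day 7 it was 22057 to 25717 FPKM in ctrl, 4386 to 9447 in the libraries labelled Cre, 20684 to 20909 in Cre + NFIA and 830 to 2111 in Cre + NFIA Δpro#3. The summed level of 6 precursor or stromal markers (Pdgfra, Pdgfrb, Ly6a, Cd34, Dlk1 and Thy1) was 502 to 552, 1109 to 1247, 528 to 598 and 1259 to 1515 FPKM in the same order. This sum was mostly Ly6a, at means of 386, 900, 438 and 1136 FPKM. Ly6a, Pdgfra, Pdgfrb and Thy1 had their highest mean in Cre + NFIA Δpro#3. Cd34 and Dlk1 had theirs in Cre, at 41.2 and 12.6 FPKM, beside 37.2 and 5.55 FPKM in Cre + NFIA Δpro#3. Of 4 leukocyte markers, Ptprc, Adgre1 and Itgam had at most 3 reads per library on average in every group, and Cd68 had 47 to 131 reads, at group means of 4.08 to 7.02 FPKM. Of 3 endothelial markers, Cdh5 had at most 3 reads per library on average, Tek was at means of 2.09 to 6.65 FPKM at day 0 and 0.728 to 1.88 FPKM at day 7, and Pecam1 was at 0.332 FPKM or less in mean. The 3 muscle markers (Myod1, Myog and Ckm) were near 0 in all groups, and the 3 hepatocyte markers (Alb, Apoa1 and Serpina1a) summed to at most 2.40 FPKM, in Cre + NFIA at day 7. At day 7 the summed adipocyte markers were high in ctrl and Cre + NFIA, lower in Cre and lowest in Cre + NFIA Δpro#3. The sum, with ctrl above Cre + NFIA, was mostly Fabp4, at means of 17544 FPKM in ctrl and 14618 in Cre + NFIA. Of the 8 markers, only Plin1 (473 against 469 FPKM) and Retn (474 against 329 FPKM) were higher in mean in Cre + NFIA than in ctrl. The group means of Gpd1, Agpat2 and Agpat3 shared the order of the sum, but ctrl and Cre + NFIA overlapped for each. In bulk RNA, fewer adipocytes and less RNA per adipocyte cannot be told apart, and the part of either in the results below was not tested.

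Promoter sequences were taken from RefSeq on GRCm38.p6, a later build than the one used for expression, and 7 of the 10 genes were matched there. Dgat1, Dgat2 and Gpd1 were not among the matched genes. The 250 bases before the annotated start of 3 genes are shown because these genes differed in how they responded: Pck1 had the largest response to full-length NFIA, Agpat2 was at least 3-fold apart in all 3 day 7 comparisons with Cre, and Lclat1 moved against 8 of the others. Capitals mark the matches to any of 4 motifs searched on both strands: the NFI palindrome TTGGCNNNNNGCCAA, the NFI unit TTGGCA, whose first letters are also the left arm of the palindrome, the PPAR direct repeat AGGNCANAGGNCA, and ACGTCA, the core of the cAMP response element, which was added after the promoter letters had been seen.
Pck1 upstream region, chr2:173152823-173153072, + strand: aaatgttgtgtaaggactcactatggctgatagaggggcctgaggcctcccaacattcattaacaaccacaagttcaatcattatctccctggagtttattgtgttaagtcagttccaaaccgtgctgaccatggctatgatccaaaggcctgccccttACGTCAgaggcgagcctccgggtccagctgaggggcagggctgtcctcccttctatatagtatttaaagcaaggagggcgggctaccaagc
Agpat2 upstream region, chr2:26604418-26604667, - strand: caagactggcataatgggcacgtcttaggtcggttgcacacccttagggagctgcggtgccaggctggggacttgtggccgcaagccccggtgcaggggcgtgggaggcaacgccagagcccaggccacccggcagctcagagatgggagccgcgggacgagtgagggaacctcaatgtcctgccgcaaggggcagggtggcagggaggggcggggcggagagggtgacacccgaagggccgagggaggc
Lclat1 upstream region, chr17:73107735-73107984, + strand: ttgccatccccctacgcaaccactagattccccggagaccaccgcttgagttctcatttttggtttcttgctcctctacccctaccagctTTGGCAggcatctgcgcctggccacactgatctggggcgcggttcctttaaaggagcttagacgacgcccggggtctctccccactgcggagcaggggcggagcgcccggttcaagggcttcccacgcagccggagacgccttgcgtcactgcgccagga
The capitals in Lclat1 are TTGGCA, beginning at position -160 from the start, and those in Pck1 are ACGTCA, beginning at position -91. Agpat2 held no match. Over the 10 promoter entries of the 7 genes, the only other match was ACGTCA at position -32 of one Gpam entry. Of 32851 promoters, 0.0365% held the NFI palindrome, 14.1% the NFI unit, 0.381% the PPAR direct repeat and 7.51% ACGTCA. A match describes the letters only, and binding was not measured here.

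The first question was what differentiation did to these genes in ctrl cells. All 10 genes passed the test between day 7 and day 0, 8 of them higher and Lpin2 and Lclat1 lower, where 71.0% of all genes tested passed (limma, Benjamini-Hochberg adjusted p under 0.05). At least 3-fold higher were 7 of the 10, against 5.64% of all genes. Their median difference was 3.09 on the log2(FPKM + 1) scale, and that of all genes was -0.05.

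Glycerol 3-phosphate supply showed the widest range. Gpd1 (chromosome 15, 99547946 to 99555436, + strand; mm9 here and for all genes below) was at 0.793 ± 0.218 FPKM (SD, n = 3) in ctrl at day 0 and at 1824 ± 200 FPKM at day 7, the highest day 7 level among the 10 genes. Pck1 (chromosome 2, 172978549 to 172984774, + strand) had 2 reads over the 3 ctrl libraries at day 0, 0 reads in the libraries labelled Cre, and 1 read each in Cre + NFIA and Cre + NFIA Δpro#3. Its day 7 level was 19.7 ± 2.31 FPKM in ctrl. Pck1 was thus at or under the floor of 3 reads in every group before differentiation, and its fitted change between days depends on the pseudocount. In the libraries labelled Cre, where no read was found at day 0, it was at least 55.0-fold higher at day 7, with the floor taken as 3 reads over the group.

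Among the acyltransferases, Agpat2 went from 7.16 ± 1.23 to 1031 ± 85.2 FPKM in ctrl (SD, n = 3), a difference of 6.99 ± 0.23 (SE) on the log2 scale with adjusted p = 4.57e-16 by limma. Agpat3 went from 29.7 ± 2.09 to 202 ± 17.9 FPKM and Gpam from 10.1 ± 0.433 to 32.3 ± 1.95 FPKM. The change of Gpam, 2.99-fold on the FPKM + 1 scale, lay just under the 3-fold threshold, and it was past it under 6 of the alternatives, among them median-of-ratios scaling (1.66 on the log2 scale). On the same scale Dgat1 was 10.9-fold, Dgat2 14.4-fold and Lpin1 5.90-fold higher at day 7.

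Lpin2 and Lclat1 took the other direction in ctrl. Lpin2 fell by 0.32 ± 0.07 (SE) on the log2 scale with a limma adjusted p of 0.000244, and Lclat1 fell by 0.38 ± 0.09 with 0.000745.

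In the other cell types the rise with differentiation differed in size. The libraries labelled Cre had 8 genes higher and 5 at least 3-fold (51.7% of all genes passed and 2.26% were 3-fold higher), while Lpin2 and Lclat1 did not pass, at differences of 0.02 ± 0.07 and 0.06 ± 0.09 (SE). In Cre + NFIA 8 genes rose, 7 of them at least 3-fold, and 2 fell, beside 70.1% of all genes passing and 5.78% at least 3-fold higher. Cre + NFIA Δpro#3 had 9 genes higher, and on this scale Gpd1 and Agpat2 were at least 3-fold higher, beside 41.5% and 1.14%. Pck1 was also past 3-fold there with a pseudocount of 0.1 (2.60 on the log2 scale) and by limma voom on the recovered reads (4.67). There Dgat2 rose by 0.55 ± 0.19 (SE) on the log2 scale with a limma adjusted p of 0.0271, which lost the threshold under median-of-ratios scaling (0.0508) and quantile normalization (0.0513), with only the groups compared (0.0598), and without Cre + NFIA Δpro#3 replicate 3 of day 0 (0.138) or replicate 2 (0.0934) or 3 (0.129) of day 7. Lclat1 rose by 0.24 ± 0.09 (limma adjusted p = 0.0346), and the call was lost under both scalings (0.0666 and 0.126) and without any replicate of day 0 (0.0693 to 0.0806) or replicate 1 (0.0669) or 3 (0.175) of day 7.

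**Figure D1:**
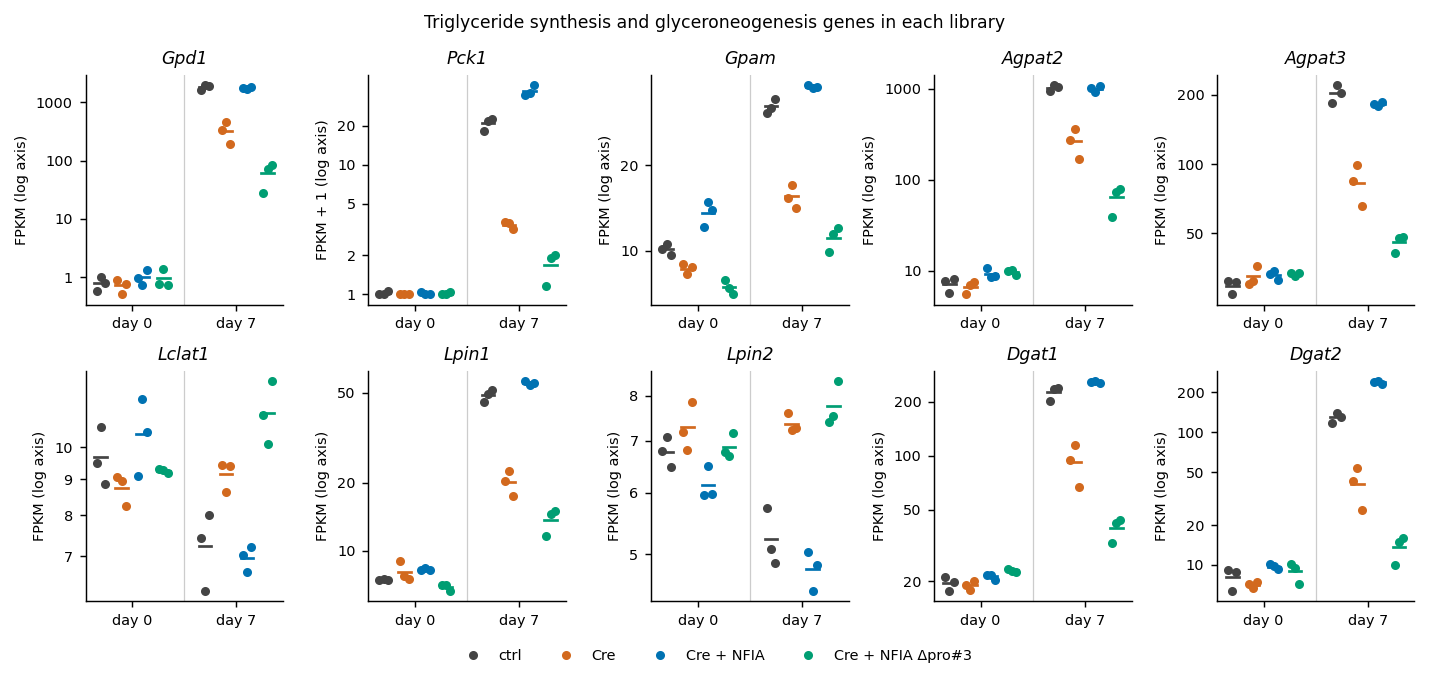
Level of each gene in each of the 24 libraries by cell type and day. The y axes are logarithmic, in FPKM, or FPKM + 1 for Pck1, whose day 0 values include 0. Points are libraries and lines are the means of 3. At day 7 ctrl and Cre + NFIA stand high for 8 genes, with the libraries labelled Cre below them and those of Cre + NFIA Δpro#3 lowest, while Lpin2 and Lclat1 stand lower in ctrl and Cre + NFIA.

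The next question was what targeting Nfia with Cre did at day 7. All 10 genes passed the test between the libraries labelled Cre and ctrl, where 58.8% of all genes tested passed. Of these, 8 were lower, against 22.7% of all genes, and Lpin2 and Lclat1 were higher. At least 3-fold lower were 4 genes, Gpd1, Pck1, Agpat2 and Dgat2, against 1.27% of all genes. The median difference of the 10 was -1.30 on the log2(FPKM + 1) scale and that of all genes 0.09.

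Full-length NFIA was then compared with the libraries labelled Cre, which also served in the comparison above, so the 2 comparisons are not independent. All 10 genes passed, beside 63.0% of all genes. The 8 genes lower in the libraries labelled Cre were higher with NFIA (27.0% of all genes were higher), and Lpin2 and Lclat1 were lower. Gpd1, Pck1, Agpat2 and Dgat2 were at least 3-fold higher, against 2.13% of all genes, and the median difference was 1.46, where that of all genes was -0.06.

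Δpro#3 gave the opposite sign when set against the same libraries labelled Cre. Here 8 of the 10 genes passed, all lower, where 17.7% of all genes passed and 10.0% were lower. Gpd1 and Agpat2 were at least 3-fold lower, beside 0.593% of all genes. Pck1 was past 3-fold as well with a pseudocount of 0.1 (-1.93 on the log2 scale) and by limma voom (-2.12), and Dgat2 without replicate 3 of Cre (-1.76) or of Cre + NFIA Δpro#3 (-1.59). Between Cre + NFIA Δpro#3 and Cre + NFIA all 10 genes passed, beside 69.2% of all genes, and 8 were at least 3-fold lower, beside 4.60%.

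Gpd1, glycerol-3-phosphate dehydrogenase, was at 1601, 1989 and 1882 FPKM in ctrl and at 333, 453 and 196 FPKM in the libraries labelled Cre. Its levels were 1782, 1727 and 1846 FPKM with full-length NFIA. In Cre + NFIA Δpro#3 they were 28.1, 73.1 and 85.1 FPKM. ctrl and Cre + NFIA overlapped, the libraries labelled Cre lay well below them, and those of Cre + NFIA Δpro#3 were lower again with no overlap. The difference from ctrl was -2.55 ± 0.36 (SE) on the log2 scale in the libraries labelled Cre, with a limma adjusted p of 8.45e-05. Full-length NFIA gave 2.52 ± 0.36 against Cre (6.95e-05), and Δpro#3 gave -2.44 ± 0.36 (0.00107).

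Pck1, the cytosolic phosphoenolpyruvate carboxykinase, was far less abundant than Gpd1. The ctrl libraries held 17.1, 20.6 and 21.5 FPKM and the libraries labelled Cre 2.58, 2.55 and 2.18 FPKM. Cre + NFIA had 33.6, 34.8 and 40.1 FPKM, above every ctrl library. The libraries of Cre + NFIA Δpro#3, at 0.164, 0.885 and 1.02 FPKM, held only 5 to 34 reads of the gene, and all lay below the other groups. Pck1 was lower by -2.59 ± 0.17 (SE) in Cre than in ctrl on the log2(FPKM + 1) scale (limma adjusted p = 6.46e-07) and higher by 3.43 ± 0.17 with NFIA than in Cre (2.55e-08). Against Cre, Δpro#3 gave -1.06 ± 0.17 (0.00172), where the pseudocount makes the change smaller.

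Gpam (chromosome 19, 55142142 to 55201824, - strand), the mitochondrial glycerol-3-phosphate acyltransferase, had the smallest difference among the 8 genes that were lower in the libraries labelled Cre than in ctrl at day 7. The ctrl libraries had 30.6, 31.8 and 34.4 FPKM, and those labelled Cre had 15.4, 17.1 and 14.2 FPKM. Cre + NFIA was at 38.4, 37.4 and 37.8 FPKM and Cre + NFIA Δpro#3 at 9.88, 11.5 and 12 FPKM, so that all 4 cell types were apart. The difference from ctrl was -1.01 ± 0.08 (SE) on the log2 scale in the libraries labelled Cre, with a limma adjusted p of 1.46e-06, and Δpro#3 gave -0.45 ± 0.08 against Cre (0.00281). The mean of Gpam was 48.2% of the ctrl mean in Cre and 34.5% in Cre + NFIA Δpro#3.

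Agpat2 (chromosome 2, 26448577 to 26459937, - strand), whose loss is known to cause lipodystrophy, was at 938, 1104 and 1052 FPKM in ctrl. It was at 272, 364 and 168 FPKM in the libraries labelled Cre and at 1014, 933 and 1070 FPKM in Cre + NFIA. Cre + NFIA Δpro#3 had 39.5, 73.6 and 79.2 FPKM. The order was that of Gpd1, with ctrl and Cre + NFIA overlapping and the others apart below. The log2 differences were -2.01 ± 0.27 (SE) for Cre against ctrl (limma adjusted p = 6.19e-05), 1.97 ± 0.27 for Cre + NFIA against Cre (5.3e-05) and -2.04 ± 0.27 for Cre + NFIA Δpro#3 against Cre (0.000752).

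Agpat3 (chromosome 10, 77731923 to 77815234, - strand), a relative of Agpat2, changed less. It was at 184 to 220 FPKM in ctrl, 65.9 to 98.8 in the libraries labelled Cre, 178 to 186 in Cre + NFIA and 41.0 to 48.3 in Cre + NFIA Δpro#3. Its log2 difference between Cre and ctrl was -1.29 ± 0.12 (SE) with a limma adjusted p of 4.4e-06.

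Lclat1 (chromosome 17, 73457325 to 73592708, + strand) went the other way. Its ctrl levels were 7.43, 6.26 and 8.01 FPKM, and the libraries labelled Cre had 9.43, 8.64 and 9.39 FPKM. Cre + NFIA had 7.02, 6.65 and 7.21 FPKM and Cre + NFIA Δpro#3 had 11.1, 10.1 and 12.4 FPKM. The groups were apart except for ctrl and Cre + NFIA. The difference between Cre and ctrl was 0.31 ± 0.09 (SE) on the log2 scale (limma adjusted p = 0.0106), and the call was lost under median-of-ratios scaling (0.0698) and quantile normalization (0.0818). That between Cre + NFIA and Cre was -0.35 ± 0.09 (0.00449), and that between Cre + NFIA Δpro#3 and Cre, 0.26 ± 0.09, did not pass (0.0657). The latter passed with the replicate block (0.0188), under quantile normalization (0.0283), by limma voom (0.0426) and without Cre + NFIA Δpro#3 replicate 2 (0.0437).

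The lipins, phosphatidate phosphatases, split. Lpin1 (chromosome 12, 16542475 to 16596576, - strand) was at 45.6, 49.2 and 51.5 FPKM in ctrl and at 20.3, 22.6 and 17.5 FPKM in the libraries labelled Cre. Cre + NFIA had 56.1, 54.2 and 55.1 FPKM of it, and Cre + NFIA Δpro#3 had 11.6, 14.5 and 14.9 FPKM. All 4 cell types were apart for Lpin1, with Cre + NFIA highest. The log2 difference of Lpin1 was -1.24 ± 0.10 (SE) between Cre and ctrl (limma adjusted p = 1.54e-06) and 1.42 ± 0.10 between Cre + NFIA and Cre (2.27e-07).

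Lpin2 (chromosome 17, 71531900 to 71599157, + strand) was at 5.74, 5.08 and 4.87 FPKM in ctrl and at 7.60, 7.22 and 7.28 FPKM in the libraries labelled Cre. It was at 5.04, 4.49 and 4.84 FPKM in Cre + NFIA and at 7.40, 7.53 and 8.35 FPKM in Cre + NFIA Δpro#3. The libraries fell into a lower pair of cell types, ctrl and Cre + NFIA, and a higher pair. The log2 difference was 0.43 ± 0.07 (SE) between Cre and ctrl (limma adjusted p = 0.000351) and -0.53 ± 0.07 between Cre + NFIA and Cre (5.13e-05).

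Dgat1 (chromosome 15, 76332445 to 76342381, - strand), a diacylglycerol acyltransferase of the endoplasmic reticulum, was at 202, 235 and 237 FPKM in ctrl. It was at 94.8, 115 and 66.6 FPKM in the libraries labelled Cre, 256, 259 and 255 FPKM in Cre + NFIA and 32.7, 42.1 and 43.9 FPKM in Cre + NFIA Δpro#3. No cell type overlapped another. The log2 differences were -1.31 ± 0.16 (SE) for Cre against ctrl (limma adjusted p = 3.2e-05) and -1.17 ± 0.16 for Cre + NFIA Δpro#3 against Cre (0.000822).

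Dgat2 (chromosome 7, 106302173 to 106331223, - strand), an enzyme of the same reaction from an unrelated family, had a larger change. The ctrl level was 117, 141 and 130 FPKM, and the libraries labelled Cre had 42.7, 53.7 and 25.8 FPKM. Cre + NFIA had 241, 242 and 232 FPKM and Cre + NFIA Δpro#3 had 10.0, 15 and 15.9 FPKM. Every Cre + NFIA library was above every ctrl library, and every Cre + NFIA Δpro#3 library below every library labelled Cre. The log2 differences were -1.70 ± 0.22 (SE) for Cre against ctrl (limma adjusted p = 4.23e-05), 2.58 ± 0.22 for Cre + NFIA against Cre (1.02e-06) and -1.47 ± 0.22 for Cre + NFIA Δpro#3 against Cre (0.00112). Without replicate 3 of Cre the difference from ctrl was -1.41, under 3-fold.

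**Figure D2:**
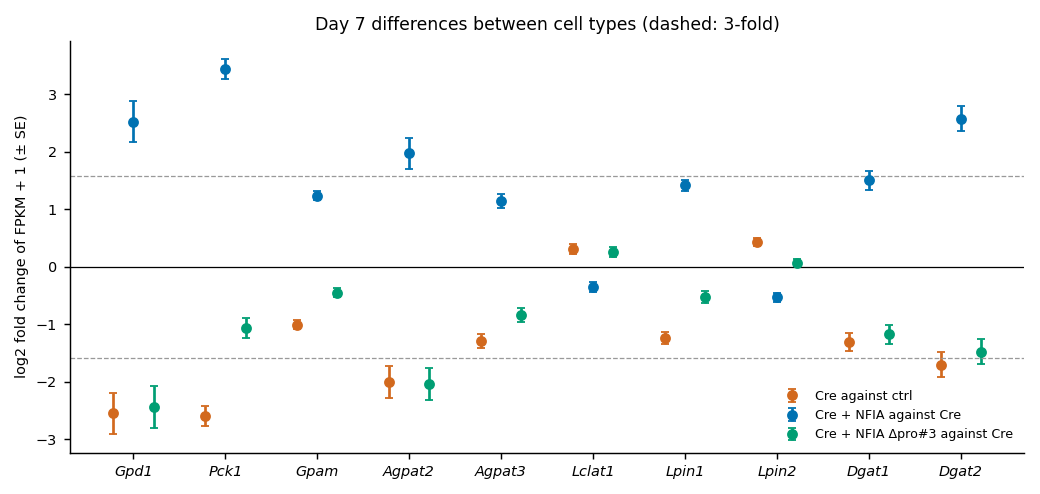
Differences of the 10 genes at day 7 for 3 comparisons, as log2 fold change of FPKM + 1 (y axis) with bars for the SE, and dashed lines at 3-fold. Cre against ctrl (brown-orange) lies below 0 and Cre + NFIA against Cre (blue) above 0 for 8 genes, and the signs are exchanged for Lclat1 and Lpin2. Cre + NFIA Δpro#3 against Cre (green) lies below 0 for the same 8 genes.

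Whether full-length NFIA brought the genes back to ctrl was examined by setting Cre + NFIA beside ctrl at day 7. Pck1 and Dgat2 passed, both higher in Cre + NFIA, where 18.0% of all genes passed and 8.81% were higher, and none of the 10 reached 3-fold, beside 0.301% of all genes. At an unadjusted p under 0.05 there were 3 genes, and by limma voom on the recovered reads 3 passed and 0 reached 3-fold. Pck1 was higher by 0.85 ± 0.17 (SE) on the log2 scale (limma adjusted p = 0.00648) and Dgat2 by 0.88 ± 0.22 (0.017). These SEs were estimated over all 12 libraries of day 7, including cell types outside this comparison. For Dgat2 the SD was 34.5% of the mean in Cre and 23.3% in Cre + NFIA Δpro#3, beside 9.27% in ctrl and 2.24% in Cre + NFIA. The call of Dgat2 was lost without ctrl replicate 1 (0.0644) and without Cre + NFIA replicate 1 or 2 (0.0524 and 0.0552), and that of Pck1 with a pseudocount of 0.1 (0.167). The means of the other 8 genes were 90.2% to 117% of the ctrl mean, and that they did not pass does not show that they were equal. Among them Gpam passed, higher in Cre + NFIA, by limma voom (0.0339), with only the groups compared (0.0293) and with a pseudocount of 5 (0.0493). In 5 of the 10 genes the 2 groups did not overlap, beside 39.6% of all genes.

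The paired genes differed in how their ratio moved. Dgat2 to Dgat1 was 0.577 ± 0.0251 (SD, n = 3) in ctrl at day 7, 0.436 ± 0.0427 in the libraries labelled Cre, 0.929 ± 0.0156 in Cre + NFIA and 0.342 ± 0.0312 in Cre + NFIA Δpro#3, and no group overlapped another. At day 0 the means lay between 0.373 and 0.456. Lpin1 to Lpin2 was 9.40 ± 1.34, 2.74 ± 0.367, 11.5 ± 0.495 and 1.76 ± 0.183 in the same order, from 1.01 to 1.35 at day 0. Agpat2 to Agpat3 was 5.11 ± 0.0817, 3.16 ± 0.572, 5.52 ± 0.250 and 1.38 ± 0.365, so that Agpat2, the lower of the 2 in every group at day 0, was the higher in mean at day 7. Pck1 to Gpd1 was 0.0108 ± 0.000552 in ctrl, 0.00817 ± 0.00277 in Cre, 0.0203 ± 0.00143 in Cre + NFIA and 0.00999 ± 0.00361 in Cre + NFIA Δpro#3. Cre + NFIA was above the other 3 cell types, which overlapped each other. With 3 libraries against 3 an exact permutation test cannot give a two-sided p below 0.1, and the ratios were not tested. The level of a ratio depends on the gene lengths used, while its change between groups does not. The lengths were 6081 bases for Lpin2 and 3439 for Agpat3, beside 12233 and 7577 exon bases in GENCODE vM1. For Lpin1 the length was 5915 bases, beside 5725.

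**Figure D3:**
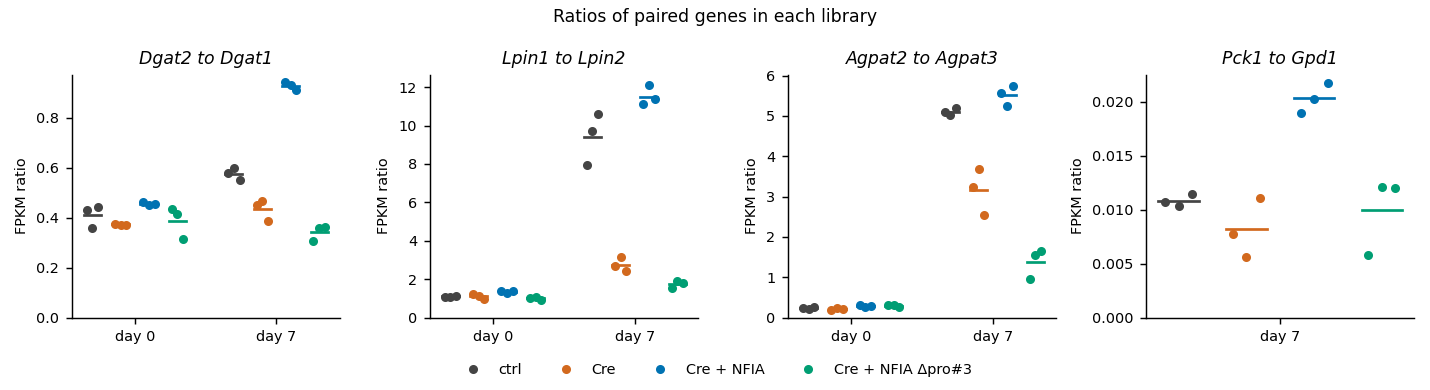
Ratio of the FPKM values of 4 gene pairs in each library (y axis, ratio, from 0), by cell type and day, with lines at the mean of 3 libraries. Dgat2 to Dgat1 reaches 0.929 in Cre + NFIA at day 7 against 0.577 in ctrl, and Lpin1 to Lpin2 rises from near 1 at day 0 to 9.40 in ctrl and 11.5 in Cre + NFIA. Pck1 to Gpd1 is drawn at day 7 only.

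At day 7 the SD between replicates, relative to the mean, was compared over the cell types. It was largest in the libraries labelled Cre and in Cre + NFIA Δpro#3 for Gpd1, Gpam, Agpat2, Agpat3, Lpin1, Dgat1 and Dgat2. For Lclat1 and Lpin2 it was largest in ctrl, and for Pck1 in Cre + NFIA Δpro#3 followed by ctrl. Replicate 3 of Cre at day 7 was the lowest of its group for 8 of the 10 genes and for 8 of 8 adipocyte markers. Replicate 1 of Cre + NFIA Δpro#3 was the lowest for 9 genes and 8 markers, and its replicate 3 the highest for 10 and 8. Leaving out any single library of a comparison changed no count of genes at least 3-fold apart by more than 1.5 times. With counts this small, single genes could cross 3-fold within that limit. Dgat2 did so for Cre against ctrl without Cre replicate 3 (-1.41 on the log2 scale).

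Before differentiation, at most 4 of the 10 genes passed in any comparison. Between the libraries labelled Cre and ctrl at day 0, 0 of the 10 genes passed by limma, 1 was at an unadjusted p under 0.05 and 0 passed by limma voom on the recovered reads, while 3.33% of all genes passed. Cre + NFIA against Cre gave 4 genes, beside 27.6% of all genes. Gpam was higher by 0.60 ± 0.08 (SE) on the log2 scale (limma adjusted p = 0.000194), with 12.1, 14.9 and 13.9 FPKM against 8.97, 8.27 and 8.75. Agpat2 (0.43 ± 0.13, adjusted p = 0.0373), Dgat2 (0.41 ± 0.14, 0.0465) and Lpin2 (-0.21 ± 0.07, 0.0364) passed narrowly, and leaving out any of the 6 libraries compared left only 1 or 2 genes passing.

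For Cre + NFIA Δpro#3 against Cre at day 0, Agpat2 and Dgat1 passed, beside 18.3% of all genes. Agpat2 was higher by 0.49 ± 0.13 (SE) and Dgat1 by 0.26 ± 0.06, with limma adjusted p of 0.0285 and 0.0168, and none of the 10 genes passed without Cre replicate 2 or without Cre + NFIA Δpro#3 replicate 1. Gpam was lower in Cre + NFIA Δpro#3 than in Cre + NFIA by -0.79 ± 0.08 (limma adjusted p = 6.14e-05), the only gene to pass there, beside 10.1% of all genes. It was also the only gene to pass between Cre + NFIA and ctrl at day 0 (0.39 ± 0.08, 0.00247), beside 33.1% of all genes. Before differentiation Gpam was highest in the cells with full-length NFIA, at 13.6 ± 1.38 FPKM in Cre + NFIA and at means from 7.44 ± 0.421 to 10.1 ± 0.433 FPKM in the other cell types (SD, n = 3).

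Whether the differences at day 7 went beyond those at day 0 was tested by an interaction term. For Cre against ctrl all 10 genes passed, beside 49.2% of all genes, and Gpd1, Pck1 and Agpat2 were at least 3-fold apart, beside 1.53%. By limma voom 8 passed and 1 was at least 3-fold apart, with Gpd1 (adjusted p = 0.139) and Pck1 (0.0808) lost, and Lpin2 was lost under median-of-ratios scaling (0.0513) and quantile normalization (0.0694). For Cre + NFIA against Cre all 10 passed as well, beside 48.9%, and Gpd1, Pck1 and Dgat2 reached 3-fold, beside 2.86%. Here Gpd1 was lost by limma voom (0.209) and Lpin2 under median-of-ratios scaling (0.0686). For Cre + NFIA Δpro#3 against Cre 6 passed, beside 18.2%, and Gpd1, Agpat2 and Dgat2 reached 3-fold, beside 0.767%. By limma voom Gpd1 (0.16) and Pck1 (0.323) were lost, and Lpin1 (-0.34 ± 0.12 SE, adjusted p = 0.0604) passed under 6 of the alternatives.

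Other genes of the pathway were taken from a list of 36, of which 33 were tested. Between the libraries labelled Cre and ctrl at day 7, 25 of them passed, beside 58.8% of all genes, and 19 were lower (22.7%) and 6 higher, at a median of -0.38 on the log2 scale. Between Cre + NFIA and Cre 25 passed, beside 63.0% of all genes, 19 of them higher (27.0%) and 6 lower, at a median of 0.63. Between Cre + NFIA Δpro#3 and Cre 15 passed, beside 17.7%, 12 of them lower (10.0%) and 3 higher, at a median of -0.07. By role, 6 of the 8 genes of glycerol 3-phosphate supply were lower in the libraries labelled Cre than in ctrl, as were both tested glycerol-3-phosphate acyltransferases, Gpat3 and Gpat4.

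Of the 33 genes, 2 were at least 3-fold lower in Cre than in ctrl, beside 1.27% of all genes, 5 rose in Cre + NFIA relative to Cre (2.13%), 4 lower in Cre + NFIA Δpro#3 than in Cre (0.593%) and 12 lower in Cre + NFIA Δpro#3 than in Cre + NFIA (4.60%). Pcx, pyruvate carboxylase, which makes oxaloacetate for glyceroneogenesis, was at 649, 761 and 705 FPKM in ctrl and at 223, 285 and 143 FPKM in the libraries labelled Cre. Its log2 difference was -1.75 ± 0.25 (SE), with 1.80 ± 0.25 for Cre + NFIA against Cre. Aqp7, a glycerol channel of adipocytes, differed by -2.30 ± 0.28 and 2.27 ± 0.28 in these comparisons. Mdh1, cytosolic malate dehydrogenase, was higher by 1.71 ± 0.11 in Cre + NFIA than in Cre, and Chpt1, cholinephosphotransferase, by 1.64 ± 0.22. Mogat1, of the monoacylglycerol route, had 86 to 111 reads in Cre + NFIA libraries, 15 to 34 in ctrl, 0 to 2 in those labelled Cre and 0 in Cre + NFIA Δpro#3, so the size of its fitted difference depends on the pseudocount. The 4 genes lower with Δpro#3 than in Cre were Pcx (-1.60 ± 0.25), Aqp7 (-1.68 ± 0.28), Gpat3 (-2.05 ± 0.25), a glycerol-3-phosphate acyltransferase, and Acsl1 (-2.08 ± 0.29), a long-chain acyl-CoA synthetase. Gpat3 went from a mean of 44.2 FPKM in Cre to 10.0 in Cre + NFIA Δpro#3, and Acsl1 from 287 to 69.9.

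Relatives of the 10 genes went both ways. Agpat4 was higher by 1.08 ± 0.08 (SE) and Lpin3 by 1.15 ± 0.08 in the libraries labelled Cre than in ctrl, and lower by -1.27 ± 0.08 and -0.99 ± 0.08 in Cre + NFIA than in Cre. Agpat1 did not pass in either comparison (-0.08 ± 0.06 and 0.10 ± 0.06). Gpat3, Gpat4, Acsl1 and these relatives were chosen after their values were seen.

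**Figure D4:**
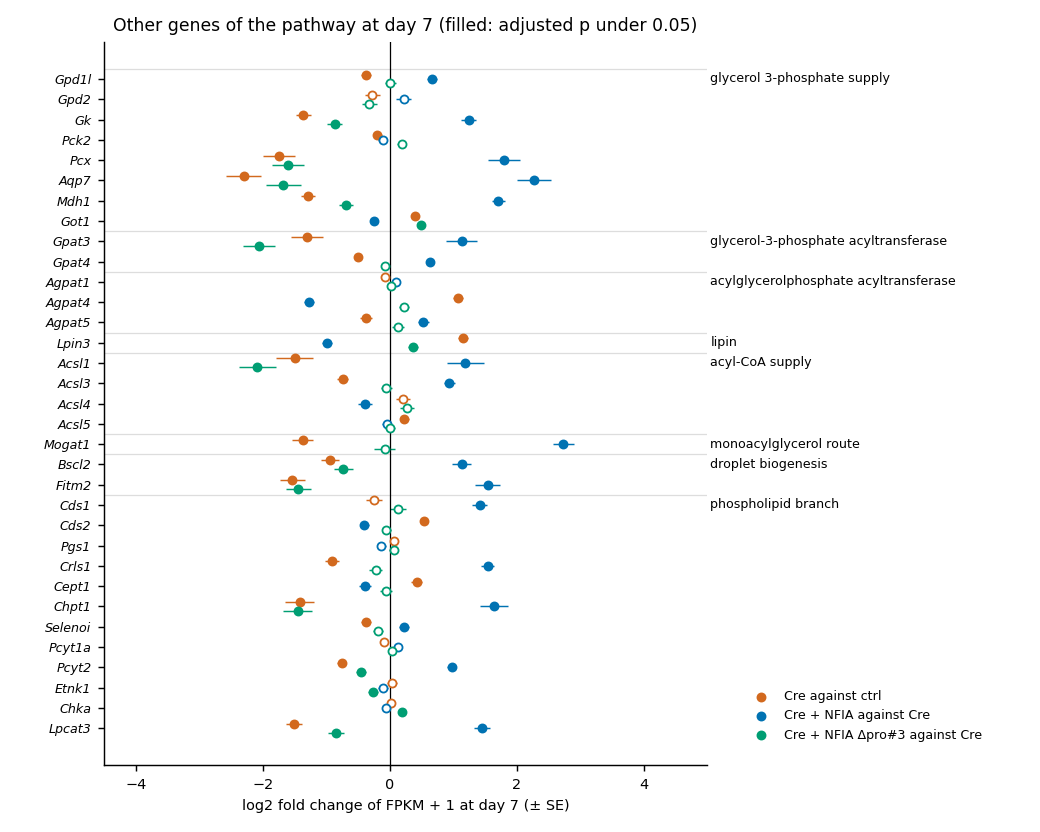
The 33 tested other genes of the pathway at day 7, grouped by role, as log2 fold change of FPKM + 1 (x axis) with bars for the SE. Filled points have an adjusted p under 0.05 and open points do not. Brown-orange is Cre against ctrl, blue is Cre + NFIA against Cre and green is Cre + NFIA Δpro#3 against Cre. Aqp7 and Pcx lie farthest left in brown-orange, and Mogat1 farthest right in blue.

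Finally, the genes whose level followed each of the 10 most closely over all 24 libraries were looked up, by the root mean square of the difference of log2(FPKM + 1) values centred per gene. This is a description with no test, and the libraries share cell type and day. Gpd1 lay closest to Adipoq (0.39), Fabp4 (0.45) and Cd36 (0.45), against its own SD of 4.39. Pck1 lay closest to Ffar4 (0.17), Pnpla3 (0.18) and Scd1 (0.21), against 2.03, and Dgat2 to Acss2 (0.25), Ffar4 (0.26) and Scd1 (0.27), against 1.84. Pck1 and Dgat2 thus shared Ffar4 and Scd1 among their closest 3. Pck1 was at or under the floor of 3 reads in every group at day 0, so its SD and distances depend on the pseudocount. Agpat2 lay closest to Pnpla2 (0.20), Slc36a2 (0.20) and Lgals12 (0.21), against 2.98. Closest to Gpam were Trp53inp2 (0.17), Celf2 (0.17) and Abca1 (0.18), and to Agpat3 Cluh (0.10), Mknk2 (0.11) and Slc25a25 (0.12). Lpin1 had Chp1 (0.12), Hsd17b4 (0.13) and Slc25a25 (0.15), and Dgat1 had Idh3a (0.15), Adipor2 (0.15) and Pfkfb1 (0.17). For Lclat1 they were Stt3a (0.08), Utp20 (0.08) and Adam10 (0.09), and for Lpin2 Dync1i2 (0.08), Dync1li2 (0.09) and Elmo2 (0.09). The SDs of Lclat1 and Lpin2 were only 0.22 and 0.21, the smallest of the 10 genes, so these small distances do not show a closer match.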

How the data were processed

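RNA-seq was measured in 24 libraries of 8 groups (4 cell types at day 0 and day 7, 3 replicates each), grouped by their titles. The authors deposited FPKM per gene from stranded libraries. STAR 2.5.3a and mm9 are named in the submitters' processing notes. Whole reads were recovered from 100% of the FPKM values (within 0.05 reads), with totals of 7.73 to 14.62 M reads. The floors of 3 reads cover counting error only, while the SE (from limma) and SD values reflect the spread between libraries. Replicate pairs differed by more than sampling noise (chi-square per degree of freedom 2.17 to 15.10). log2(FPKM + 1) values were analysed in R 4.3.3 by limma 3.58.1, allowing a mean-variance trend, on the 12 libraries of a day or on all 24 for comparisons between days. Tests were two-sided and p was Benjamini-Hochberg adjusted over the 12640 genes that reached 1 FPKM in 3 or more libraries. Because the unit was FPKM, the count branch of the plan was not used. Genes were called at adjusted p under 0.05 and at least 3-fold. Tested on simulated data of Cre + NFIA against Cre at day 7, the fit recovered 168 of 196 genes changed 6-fold among 12252. It called 1 unchanged gene there, and 2 where no gene was changed. The simulation gave all genes the same spread, smaller than that of Gpd1 in Cre at day 7 (327 ± 129 FPKM, SD, n = 3). The recovery thus need not hold for such genes or for smaller changes.

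The 10 genes, the lists and the tests were chosen with earlier results of these data known. Named beside them are Nfia, other pathway genes called in Cre against ctrl or Cre + NFIA against Cre at day 7, and the 3 closest genes of each; other pathway genes named were chosen after their values were seen. Positions are GENCODE vM1 on NCBIM37 (mm9), and promoters RefSeq on GRCm38.p6. Alternatives were pseudocounts of 0.1 and 5, other filters and scalings, only the groups compared, the replicate block, no trend, limma voom on recovered reads and leaving out each library.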

Additional observations from a re-analysis of the deposited data

Results flagged for a closer look

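For 9 results the difference between 2 cell types was itself at least 3-fold different between day 7 and day 0, by an interaction term in limma on the log2(FPKM + 1) scale, with the day 0 difference subtracted from that of day 7. For Cre against ctrl these were Gpd1 (-2.49 ± 0.42 SE, adjusted p = 5.36e-05), Pck1 (-2.56 ± 0.20, 1.15e-08) and Agpat2 (-1.93 ± 0.32, 5.04e-05), where 1.53% of all genes were called. For Cre + NFIA against Cre they were Gpd1 (2.31 ± 0.42, 0.000103), Pck1 (3.42 ± 0.20, 5.32e-11) and Dgat2 (2.17 ± 0.27, 1.4e-06), where 2.86% were called. For Cre + NFIA Δpro#3 against Cre they were Gpd1 (-2.62 ± 0.42, 0.000226), Agpat2 (-2.53 ± 0.32, 2.97e-05) and Dgat2 (-1.76 ± 0.27, 0.000167), where 0.767% were called. The libraries labelled Cre enter all 3. Gpd1 and Pck1 had few reads at day 0. By limma voom on the recovered reads Gpd1 passed in none of the 3 (adjusted p = 0.139, 0.209 and 0.16), and Pck1 passed for Cre + NFIA against Cre (0.0238) but not for Cre against ctrl (0.0808). Agpat2 and Dgat2 passed in the comparisons named here under every alternative run. The size for Dgat2 with Δpro#3 was under 3-fold with a pseudocount of 5 and without Cre replicate 2 or Cre + NFIA Δpro#3 replicate 1 of day 7.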

How the results depend on the processing

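At day 7 and between days, the counts of the 10 genes at least 3-fold apart stayed within 1.5 times under every alternative, except the difference between days of Cre against ctrl, where limma voom gave 1 in place of 3. Single genes could cross 3-fold within this limit, as given above for Gpam, Pck1 and Dgat2. Counts of genes passing moved mostly at day 0. Cre + NFIA against Cre gave 4, but 2 without a filter, with median-of-ratios or quantile scaling and with only the groups compared, and 1 to 2 with a library left out. Cre + NFIA Δpro#3 against Cre gave 2, but 1 without a filter and 0 to 3 with a library left out. Cre + NFIA Δpro#3 against Cre + NFIA gave 1, but 2 without a filter, with only the groups compared, without a trend and by limma voom. Cre + NFIA against ctrl gave 1 at day 0, but 2 with a mean FPKM of at least 5 and by limma voom, and 2 at day 7, but 1 with a pseudocount of 0.1 and 1 to 2 with a library left out. The counts of other pathway genes all stayed within 1.5 times. The cause of these moves was not tested.

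The replicate number pairs no cultures by the labels, and the mean correlation of same-numbered libraries was -0.159 to 0.056 over the comparisons. With the replicate block Cre + NFIA against Cre at day 0 gave 1 gene, and the block moved no other count by over 1.5 times.

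Median-of-ratios scaling moved the day 7 median of all genes for Cre against ctrl from 0.09 to -0.02, and the share of passing genes that were higher from 61.4% to 46.3%. For Cre + NFIA against Cre that share went from 43.0% to 53.7%, and with quantile normalization that of Cre between days from 58.1% to 44.5%.

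Of the log2 differences of single genes, 37 values over 18 results changed sign, none of which passed and none over 0.121 in size. Between days in Cre, Lpin2 was -0.029 with median-of-ratios scaling and -0.094 with quantile normalization, and Lclat1 -0.044 with the latter. Quantile normalization also gave 0.007 for Agpat2 (Cre + NFIA against ctrl, day 7), -0.001 for Agpat3 (Cre + NFIA Δpro#3 against Cre, day 0), and 0.015, 0.001 and -0.008 for Gpd1, Pck1 and Agpat3 (Cre + NFIA Δpro#3 against Cre + NFIA, day 0). limma voom gave -0.010 for Pck1 (Cre + NFIA Δpro#3 against Cre, day 0). With a library left out, the range was -0.026 to 0.066 for Lpin2 (Cre between days). At day 0 it was -0.15 to 0.031 for Gpd1, -0.206 to 0.037 for Agpat2 and -0.103 to 0.015 for Dgat1 (Cre against ctrl), -0.027 to 0.017 for Pck1 (Cre + NFIA against ctrl), and 0.0 to 0.025 for Pck1, -0.026 to 0.098 for Agpat3 and -0.016 to 0.101 for Lpin1 (Cre + NFIA against Cre). It was 0.0 to 0.021 for Pck1 and -0.013 to 0.111 for Agpat3 (Cre + NFIA Δpro#3 against Cre), and -0.192 to 0.064 for Gpd1, -0.017 to 0.014 for Pck1, -0.022 to 0.044 for Agpat3 and -0.215 to 0.017 for Dgat2 (Cre + NFIA Δpro#3 against Cre + NFIA). At day 7 it was -0.117 to 0.04 for Gpd1, -0.102 to 0.018 for Agpat2 and -0.131 to 0.025 for Lclat1 (Cre + NFIA against ctrl).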
